A study of Mus musculus with 15 samples.

Results

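Gene expression at middle age was set against both ends of the adult life span in the gastrocnemius, the large calf muscle, of male C57BL/6 mice. The middle-aged group held 5 mice aged 17 months, against 5 young mice aged 5 months and 5 old mice aged 28 months, with 1 array per mouse. All mice were housed alike on chow and received no treatment, so age was the only labelled difference. The arrays were Illumina MouseRef-8 bead arrays, and every value below is a background-corrected, quantile-normalised log2 intensity. The comparison asked which genes stood higher or lower at 17 months than at both 5 and 28 months, and not which genes only rose or fell late. For each of the 9470 features tested (8760 named genes and 710 unnamed probes, from 12552 of 25697 probes that 5 or more of the 15 arrays detected at p under 0.05), the middle-age contrast was the mean of the 5 middle-aged arrays minus the average of the young and the old mean. A feature was placed outside both ends when its middle-aged mean lay above both end means (a peak) or below both (a dip), and the excess was its distance from the nearer end. Of the 9470 features, 5209 (55.0%) lay outside both ends by this measure, 2738 as peaks (28.9%) and 2471 as dips (26.1%). Counted the same way, the young mean lay outside both other means for 6315 features and the old mean for 7416. Every feature counts for the age of its highest mean and the age of its lowest, so the counts of the ages overlap. The middle-aged mean lay outside least often.

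The gastrocnemius of the mouse is built mostly of fast fibres, which draw on glycogen and glycolysis, beside a smaller share of oxidative fibres. Between its fibres lie capillaries, fibroblasts, satellite cells, nerve, resident immune cells and fat cells, and the RNA of the whole muscle holds all of them. In bulk RNA, fewer cells of a type and less RNA per cell cannot be told apart. The labelled tissue was borne out by its fibre genes: 11 of 12 skeletal muscle markers were measured, all 11 were detected on all 15 arrays, and Actn3, Ckm and Acta1 ranked 3, 6 and 9 of the 9470 features by mean level. The arrays had median raw intensities of 74.7 to 93.8 and 11534 to 12593 detected probes, and old replicate 3 stood apart, with a median correlation of 0.957 with the other arrays against 0.980 to 0.989 for the remaining 14. Each mouse gave 1 array, so the spread within a group holds both biological and technical error.

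Few genes passed the test at middle age. In limma, 2 of 9470 features (0.0211%) had an adjusted p under 0.05 in the middle-age contrast. Dkk3 was the 1 peak among them (0.0106% of features), no dip was called, and the other called gene, Krt18, was low at both 5 and 17 months and high at 28 months. At an unadjusted p under 0.05 the contrast held 432 features (4.56%), 242 higher and 190 lower, where 5% of the features would be 473.5. The stricter both-ends test asked that middle-aged differed from young and from old in the same direction and took the higher of the 2 p-values. It called 0 features after adjustment, with 53 (0.56%) at an unadjusted p under 0.05, 35 as peaks (0.37%) and 18 as dips (0.19%). These unadjusted counts moved with the arrays used: the 432 and 53 stood at 255 and 33 without middle-aged replicate 4, 822 and 135 without middle-aged replicate 5, 814 and 87 without old replicate 5, and 1577 and 343 when each array was weighted by its quality. The same model called 87 features (0.919%) when the young group was set against the average of the other ages and 272 (2.87%) when the old group was. Over all features, the root mean square difference of the group means was 0.193 for middle-aged minus young, 0.263 for middle-aged minus old and 0.309 for old minus young (log2). The 2 comparisons of the middle-aged group share its 5 arrays, so their values are given side by side. The plot of both differences shows most features close to the centre, with Dkk3 and Lep far out in the corner of peaks.

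**Figure D1:**
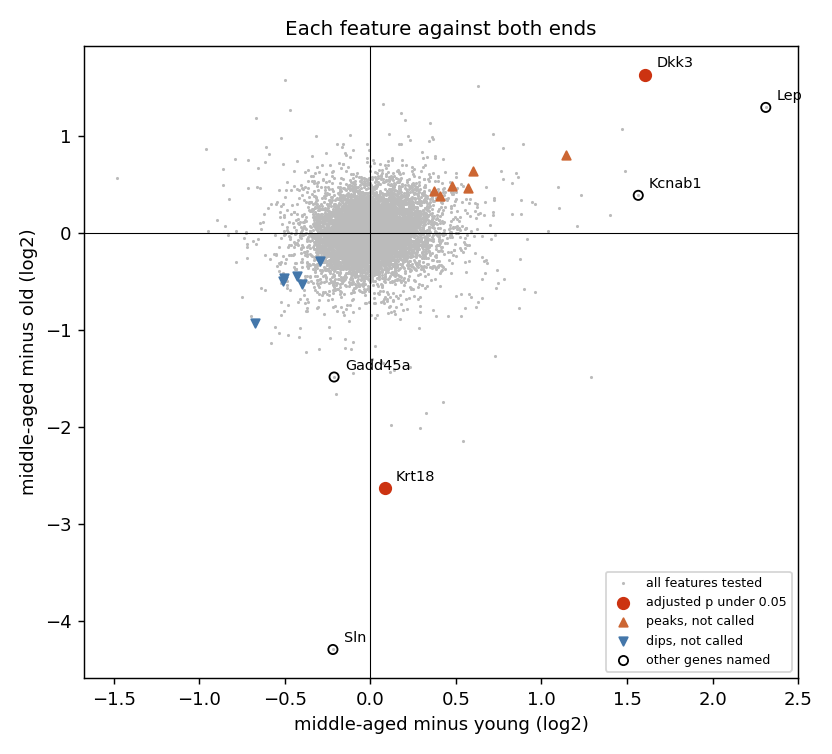
Each point is 1 of the 9470 features, with middle-aged minus young on the x axis and middle-aged minus old on the y axis (log2). Peaks lie in the upper right and dips in the lower left. Dkk3 lies at 1.61 and 1.63, Krt18 at 0.08 and -2.63, and Sln at -0.22 and -4.30, so the last 2 differ from the old group alone.

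Dkk3 encodes a secreted glycoprotein of the Dickkopf family, whose better known members block Wnt signalling at the cell surface. Its gene lies on chromosome 7. The 5 middle-aged arrays read 10.42, 9.93, 10.40, 11 and 10.5, against 9.27, 7.95, 9.33, 8.37 and 9.30 in the young arrays and 9.03, 8.05, 9.25, 8.36 and 9.38 in the old arrays. All 5 middle-aged values lay above all 10 values of the other ages, and the young and old groups covered nearly the same range. The middle-aged mean was 10.45 ± 0.38, against 8.84 ± 0.64 in young and 8.82 ± 0.58 in old muscle (SD, n = 5 each). Middle-aged Dkk3 was 3.08-fold higher than the average of the ends (contrast 1.62 ± 0.25 SE, log2, 95% interval 1.09 to 2.15, limma adjusted p = 0.0235). It exceeded young muscle by 1.61 (adjusted p = 0.0606) and old muscle by 1.63 (adjusted p = 0.0146), and the both-ends test gave an unadjusted p of 3.2e-05 and an adjusted p of 0.303, which missed the threshold. Within each end the values fell into a low and a high part: replicates 2 and 4 read 7.95 and 8.37 in young and 8.05 and 8.36 in old muscle, while the other 3 arrays of each age read 9.27 to 9.33 and 9.03 to 9.38. Replicate 2 was also the lowest of the middle-aged arrays, while replicate 4 was the highest.

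Raw intensities of the same probe, before any correction, were 1106, 1105, 1436, 3122 and 1215 on the middle-aged arrays, against 799.2, 259.5, 697.0, 408.4 and 669.4 on the young and 551.3, 233.4, 603.2, 431.5 and 876.4 on the old arrays, so the groups were separated before normalisation too. A second Dkk3 probe gave the same picture. It read 10.21, 9.51, 10.19, 10.63 and 10.16 on the middle-aged arrays, against 8.91, 7.63, 8.91, 8.11 and 9.06 on the young and 8.59, 7.85, 8.93, 7.99 and 8.95 on the old arrays. Its contrast was 1.65 ± 0.25 (SE, log2), with a limma adjusted p of 0.0168 when all probes were tested on their own. A further probe for Dkk3 was detected on 1 of 15 arrays and was not tested. The direction and size of the Dkk3 contrast held without any single array (1.48 to 1.75), but its adjusted p was above 0.05 without young replicate 4 (0.0566), middle-aged replicate 1 (0.106), 3 (0.107), 4 (0.148) or 5 (0.0930), and old replicate 1 (0.0835) or 4 (0.121). It stayed under the threshold without each of the other 8 arrays (0.00818 to 0.0456).

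**Figure D2:**
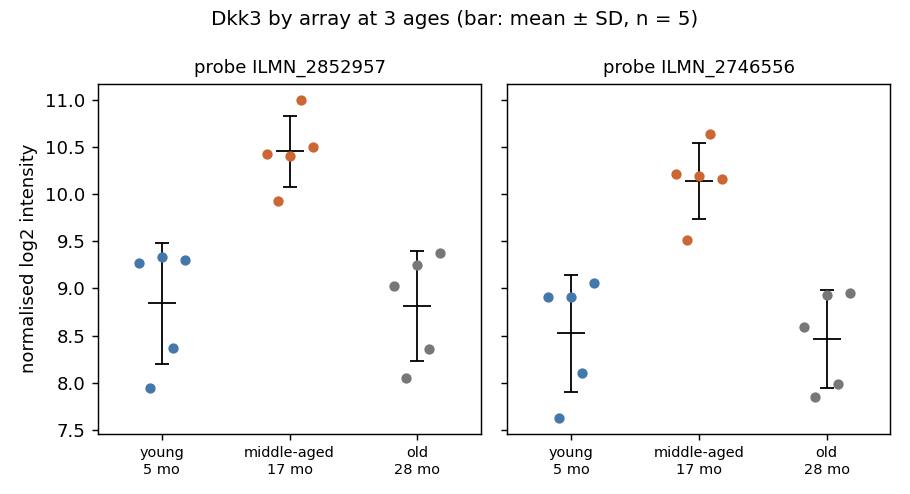
Normalised log2 intensity of Dkk3 on each array (points), with the mean and SD of 5 arrays (bars), for the probe that stands for the gene (left) and a second probe (right). At 17 months both probes lie above every array of 5 and 28 months.

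The genes beside the threshold showed what else the contrast can pick up. Krt18, a type I keratin of simple epithelia, read 4.60, 4.50, 4.51, 4.51 and 4.38 on the middle-aged arrays, against 4.41, 4.44, 4.33, 4.45 and 4.43 on the young and 7.15, 7.03, 7.71, 6.97 and 6.77 on the old arrays. It was not well above background on any middle-aged or young array and was at least 4.78-fold higher in old than in middle-aged muscle (limma adjusted p = 2.34e-09), so its call in the middle-age contrast (-1.27 ± 0.12, adjusted p = 3.81e-05) rested on the old group, and its middle-aged mean lay between the ends. Krt18 passed the detection filter only through the old group, where it was high, so its p-values are no support for a late rise. The next 3 features all had an adjusted p of 0.0546. Sln encodes sarcolipin, which slows the pump that returns calcium to the sarcoplasmic reticulum, and Gadd45a encodes a protein of the DNA damage and stress response. The middle-aged means of both lay just under young (Sln by -0.22 and Gadd45a by -0.21, log2, neither past an unadjusted p of 0.05) and far under old (-4.30 and -1.49, adjusted p = 0.000143 and 0.000257), which makes them late-rising genes that count as dips by a small margin.

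Kcnab1, a beta subunit of voltage-gated potassium channels, was the other of these features. It read 9.20, 9.19, 8.79, 9.12 and 8.80 on the middle-aged arrays, against 7.78, 7.59, 7.96, 7.05 and 6.91 on the young and 8.39, 8.38, 9.10, 8.37 and 8.92 on the old arrays. Middle-aged muscle lay clear of young muscle with no overlap and overlapped old muscle. The contrast was 0.98 ± 0.18 (SE, log2). Middle-aged exceeded young by 1.57 (adjusted p = 0.00391) and old by 0.39 (adjusted p = 0.452), so only the first of these differences passed, and a second probe gave 1.41 and 0.40.

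Among the peaks that were not called, the 6 with the lowest p in the both-ends test were Ces1d, Sirt5, Tpx2, Lefty1, Calm4 and Pnpla6, all with an adjusted p of 0.90 or more in the middle-age contrast. Ces1d, a carboxylesterase that hydrolyses triglycerides, read 11.63, 11.25, 11.43, 11.60 and 11.43 on the middle-aged arrays, against 11.28, 10.40, 10.76, 11.11 and 10.78 on the young and 10.85, 10.39, 10.42, 11.06 and 11.41 on the old arrays. Of the 5 middle-aged arrays 4 lay above every other array, and the contrast was 0.62 ± 0.16 (unadjusted p = 0.00122). Sirt5 encodes a mitochondrial sirtuin that removes succinyl and malonyl groups from lysines. Its middle-aged arrays read 8.43, 8.44, 8.54, 8.40 and 8.67, against 8.16, 7.99, 8.20, 8.29 and 7.98 in young and 8.09, 8.14, 7.89, 8.36 and 7.81 in old muscle. The middle-aged arrays lay above every young and old array, while young and old overlapped, and the contrast was 0.40 ± 0.11 (unadjusted p = 0.00152), with 0.20 ± 0.13 for a dimmer second probe.

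The other 4 were dim or of smaller difference. Tpx2, a spindle assembly factor, and Calm4, a calmodulin-like protein, were detected on all 5 middle-aged arrays and on 1 and 2 arrays of each end, with contrasts of 0.48 ± 0.14 and 0.97 ± 0.26. Both passed the detection filter only through the middle-aged group, where they were high, so their place among these genes is no support for a peak. Calm4 read 5.30 to 6.48 in middle-aged muscle, against 4.54 to 5.33 in young and 4.50 to 6.42 in old muscle, where a single array held the high value. Lefty1, a secreted antagonist of Nodal signalling, read 5.50 to 5.91 in middle-aged muscle, against 4.76 to 5.51 in young and 4.79 to 5.63 in old muscle, with a contrast of 0.52 ± 0.15. Pnpla6, a phospholipase of the endoplasmic reticulum, had a contrast of 0.40 ± 0.13. In each of these 4 genes the middle-aged range touched or overlapped that of at least 1 end, as the plot of the uncalled genes shows.

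The 6 uncalled dips with the lowest p in the both-ends test were Araf, Dupd1, Gbp7, 1110017D15Rik, Dhx9 and Btg1. Araf, a kinase of the RAF family that acts upstream of MEK and ERK, had the lowest p of these in the middle-age contrast (unadjusted p = 0.000298, adjusted p = 0.353). It read 8.78, 9.10, 8.95, 8.86 and 9.21 on the middle-aged arrays, against 9.49, 9.31, 9.37, 9.43 and 9.30 on the young and 9.66, 9.20, 9.57, 9.70 and 9.41 on the old arrays. The middle-aged group lay below the whole young group and met the old group at 1 array. Its contrast was -0.46 ± 0.10 (1.38-fold lower), and a second, dimmer probe gave -0.31 ± 0.15.

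Dupd1, a dual specificity phosphatase, read 8.88, 8.86, 9.06, 9.28 and 8.55 on the middle-aged arrays, against 9.38, 9.61, 9.03, 9.61 and 9.56 on the young and 9.21, 9.80, 9.68, 9.01 and 9.44 on the old arrays, with a contrast of -0.51 ± 0.15. Gbp7, an interferon-induced guanylate-binding protein, was not well above background on any middle-aged array by this probe and was above it on 3 young and 3 old arrays, so its middle-aged level is only a bound: it was at least 1.06-fold higher in young and at least 1.04-fold higher in old than in middle-aged muscle. 1110017D15Rik, which has no role assigned here, read 4.63 to 5.16 in middle-aged muscle, against 5.18 to 6.28 in young and 5.09 to 6.38 in old muscle. Its contrast of -0.80 ± 0.21 was the largest in size of the 6. Dhx9, an RNA helicase, and Btg1, an antiproliferative factor, had contrasts of -0.44 ± 0.14 and -0.29 ± 0.10. For Dhx9, middle-aged replicate 3 read 5.65 and the other 4 middle-aged arrays 4.67 to 5.03, and for Btg1 the other 2 probes gave -0.21 and -0.07.

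**Figure D3:**
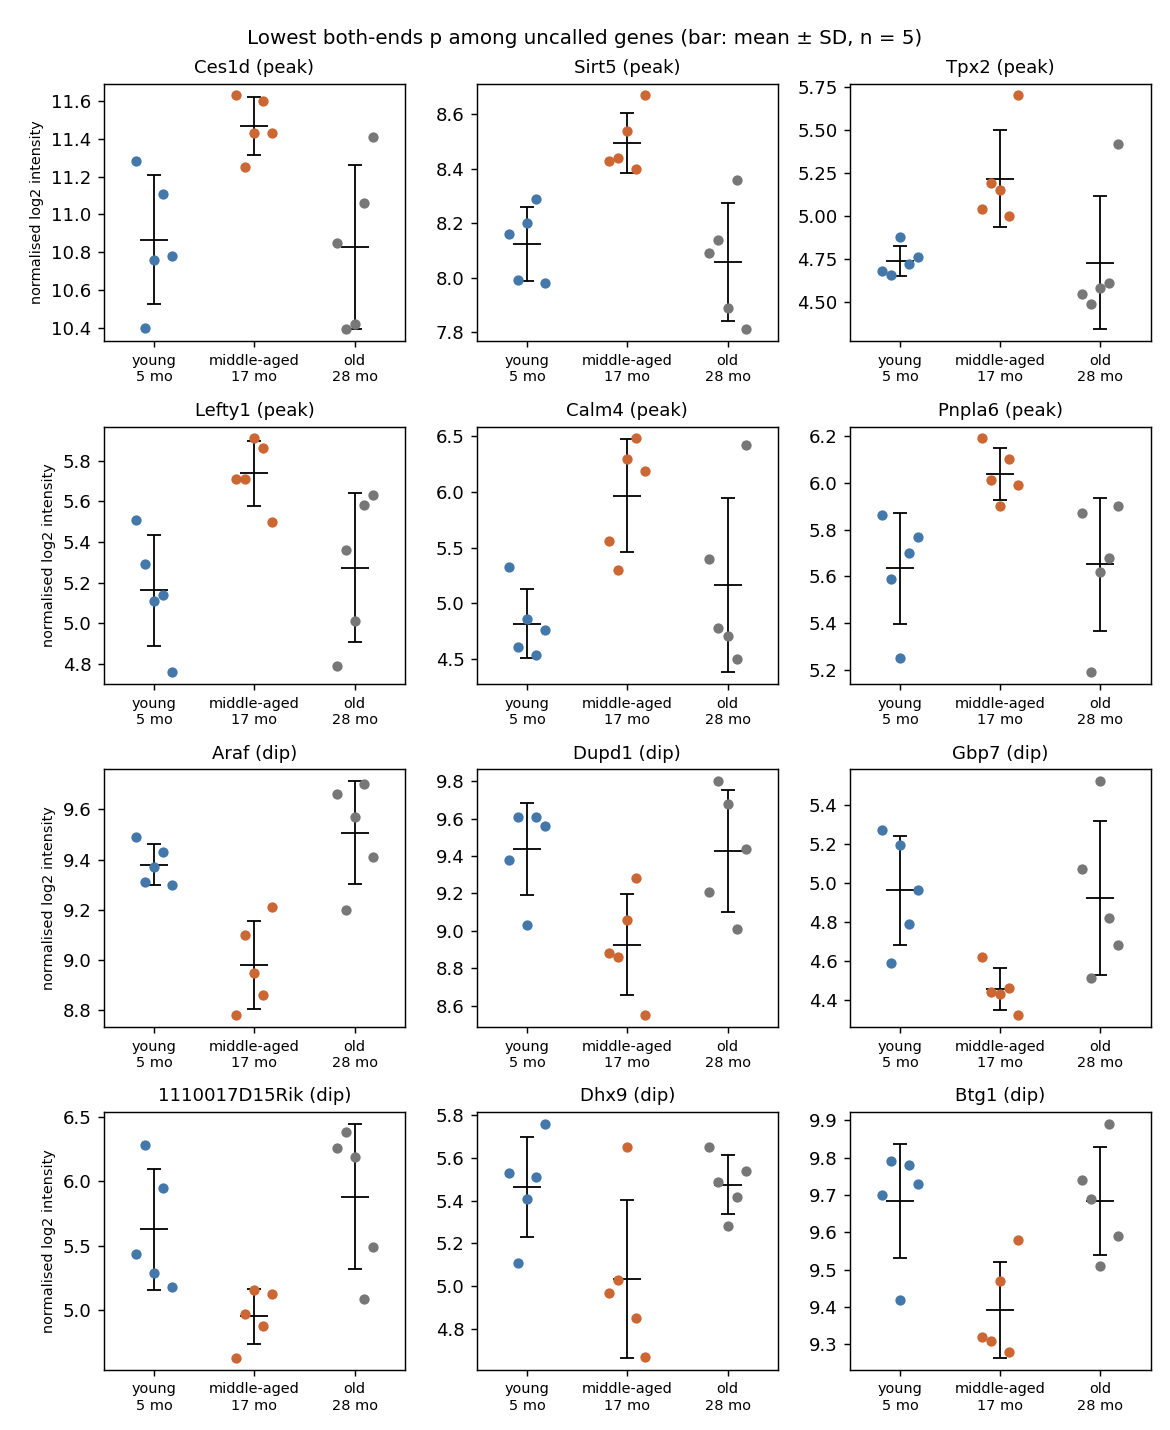
Normalised log2 intensity on each array (points), with the mean and SD of 5 arrays (bars), for the 6 peaks and the 6 dips of lowest both-ends p that were not called. Each panel has its own y axis, and Sirt5 is the 1 panel in which the middle-aged arrays lie apart from both other ages.

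Complete separation of the middle-aged arrays from both other ages was rare. All 5 middle-aged arrays lay above all 10 others for 5 features (0.0528%) and below all 10 others for 1 (0.0106%). By the same count the young arrays were apart above for 30 features and below for 43, and the old arrays for 35 and 38. The 5 were Dkk3, Sirt5, Btbd6, Timm17a and Mutyh, which encode in turn a secreted protein, a mitochondrial deacylase, an adaptor of the Cul3 ubiquitin ligase, a subunit of the mitochondrial inner membrane import channel and a DNA repair glycosylase. Btbd6 read 8.97 to 9.03 in middle-aged muscle, against 8.58 to 8.94 in young and 8.42 to 8.68 in old muscle (contrast 0.33 ± 0.09, adjusted p = 0.920). Timm17a had the tightest middle-aged values, 12.49 to 12.52, against 12.21 to 12.45 in young and 12.15 to 12.48 in old muscle, with a contrast of 0.15 ± 0.08 (adjusted p = 0.973). Mutyh was dim, detected on 2 arrays of each end, and had a contrast of 0.21 ± 0.09. It passed the detection filter only through the middle-aged group, where it was high, so its separation is no support for a peak. The 1 feature below was Ugcg, the enzyme that makes glucosylceramide, at 8.56 to 8.68 in middle-aged muscle, against 8.70 to 8.93 in young and 8.80 to 10.27 in old muscle, the last value being that of old replicate 3.

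Of the 3 features whose middle-aged mean lay more than 1 log2 unit outside both ends, Dkk3 was called and Lep, a fat cell gene, and Tmem45b were not. Tmem45b, a membrane protein gene chosen after its values were seen, had a contrast of 1.27 with an unadjusted p of 0.0104. Lep encodes leptin, the hormone that fat cells release in step with their stores. Its 5 middle-aged arrays read 10.35, 7.14, 8.38, 9.12 and 10.67, against 6.84, 6.59, 7.21, 6.31 and 7.16 in young and 6.79, 7.67, 6.91, 7.96 and 9.85 in old muscle. Of the 5 middle-aged arrays 4 lay above every young array, 2 lay above every old array, and the spread within the middle-aged group was more than 3 log2 units. The contrast was 1.80 ± 0.50 (3.49-fold higher, 95% interval 0.75 to 2.86, unadjusted p = 0.00212, adjusted p = 0.920), with 2.31 over young and 1.30 over old muscle.

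The 250 bases before the start of Lep are shown because this gene had the largest contrast of the fat cell list and its promoter holds a recognition sequence of the C/EBP factors, which act in fat cells. They lie on the plus strand of GRCm38.p6 at chr6:29059971-29060220 (RefSeq), and the capitals mark the match to TTGCNNAA, searched on both strands.
Lep: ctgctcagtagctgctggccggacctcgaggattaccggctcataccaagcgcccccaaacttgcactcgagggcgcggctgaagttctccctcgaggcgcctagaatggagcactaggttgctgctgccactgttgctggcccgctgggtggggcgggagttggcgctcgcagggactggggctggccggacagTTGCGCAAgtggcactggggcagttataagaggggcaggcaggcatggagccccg
The match lies 55 to 48 bases before the start and reads the same on both strands. Of all 32851 promoters in the table, 9.56% hold this motif in the same window, and of 9251 promoters of genes tested here 7.89% do, so the match is a description of this promoter only. Among the other fat cell genes searched, Adipoq and Plin4 held no match, while Cidec and Pparg each had promoters with and without a match. No match result is given for Cidea.

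Cidec, a lipid droplet protein of fat cells, read 7.91, 5.96, 6.24, 7.32 and 8.33 on the middle-aged arrays, against 5.8, 5.29, 5.91, 5.51 and 5.83 on the young and 6.05, 5.68, 5.23, 7.68 and 7.91 on the old arrays. Every middle-aged array lay above every young array, and the old arrays were split between low and high values. The contrast was 1.06 ± 0.42 (unadjusted p = 0.0212, adjusted p = 0.973). Adipoq, which encodes adiponectin and is given as a further measured member of the list, read 9.49, 7.81, 8.43, 8.98 and 10.06, against 7.85, 7.63, 8.09, 7.07 and 8.0 in young and 8.12, 8.21, 7.26, 10.18 and 9.07 in old muscle (contrast 0.81 ± 0.39, unadjusted p = 0.0502). Middle-aged replicates 1, 4 and 5 were the 3 highest of their group and replicate 2 the lowest for Lep, Cidec and Adipoq alike.

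The other 3 measured members, also named after their values were seen, differed less. Pparg, the master transcription factor of fat cells, averaged 6.58 ± 0.56 in middle-aged muscle, against 6.17 ± 0.26 in young and 6.48 ± 0.35 in old muscle. Plin4, a lipid droplet coat protein that muscle fibres also make, averaged 11.87 ± 0.08, against 11.81 ± 0.11 in young and 11.86 ± 0.53 in old muscle, so it counted as a peak by 0.01. Cidea, a lipid droplet protein, lay between the ends at 6.16 ± 0.27, against 5.58 ± 0.46 in young and 6.82 ± 0.998 in old muscle (SD, n = 5 each). The contrasts of Plin4 (0.04) and Cidea (-0.03) changed sign in some alternatives.

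Of the 11 genes of the fat cell list, 6 were measured, 0 were called, 5 were peaks and 1 lay between the ends, and the median contrast was 0.53 against 0.0094 over all features. For this and every later list, the shares over all features were 28.9% peaks, 26.1% dips and 45.0% between the ends. The median difference of the fat cell list was 0.91 over young and 0.25 over old muscle. The summed level of the 6 members (linear scale) ran from 4200 to 6793 on the middle-aged arrays, against 3824 to 4647 on the young and 2690 to 6910 on the old arrays, so middle-aged overlapped both. The list's median contrast was 0.31 without middle-aged replicate 5 and 0.72 without middle-aged replicate 2, the lowest and highest of all single omissions. The part that the amount of fat tissue in each sample had in these values was not tested.

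**Figure D4:**
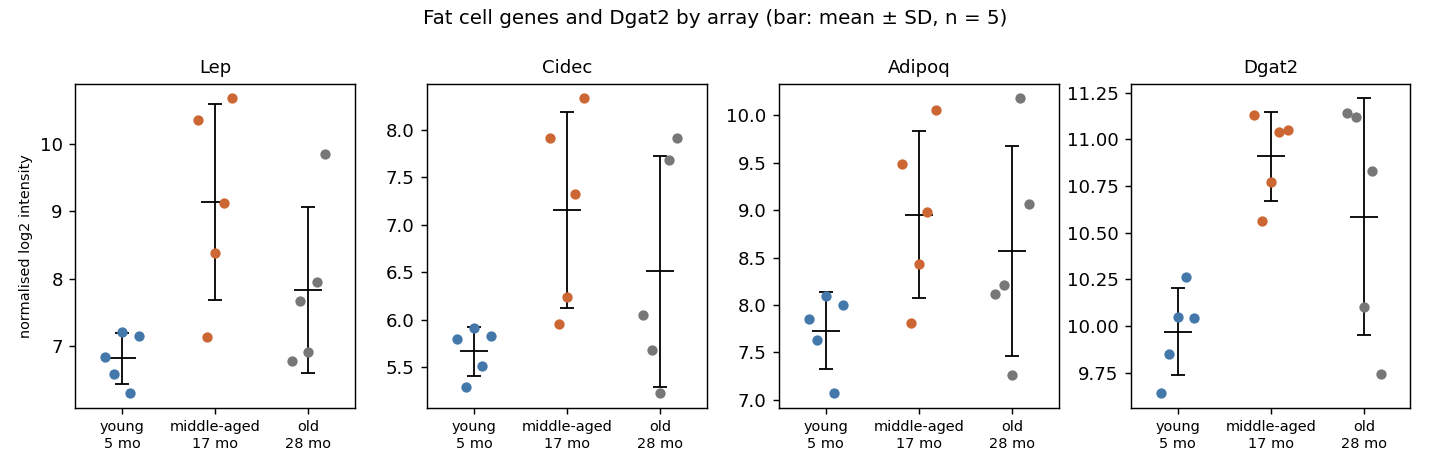
Normalised log2 intensity on each array (points), with the mean and SD of 5 arrays (bars), for Lep, Cidec, Adipoq and Dgat2. Middle-aged values spread widely for the first 3 genes, and for Dgat2 all 5 middle-aged arrays (10.56 to 11.13) lie above all young arrays (9.64 to 10.26).

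Genes of lipid handling were mostly on the high side by small amounts, and whether their RNA came from fibres or fat cells was not tested. Of 15 measured genes of fatty acid and triglyceride synthesis, 6 were peaks, 2 were dips and 7 lay between the ends. Their median contrast was 0.12 (0.02 over young, 0.09 over old), and 0.06 without young replicate 2. Dgat2, which makes the last step of triglyceride synthesis, read 11.13, 10.56, 10.77, 11.04 and 11.05 in middle-aged muscle, against 9.64, 9.85, 10.05, 10.26 and 10.04 in young and 11.14, 11.12, 10.10, 10.83 and 9.74 in old muscle. It stood 0.94 over young (unadjusted p = 0.00061, adjusted p = 0.284) and 0.32 over old muscle (adjusted p = 0.583), and its old arrays covered both the young and the middle-aged levels. As for Lep, Cidec and Adipoq, middle-aged replicates 1, 4 and 5 read highest within their group and replicate 2 lowest. Srebf1, the transcription factor of lipid synthesis, had a contrast of 0.34 but lay between the ends, -0.15 against young and 0.83 against old muscle. Of 21 measured genes of fatty acid uptake and oxidation, 14 were peaks, 2 were dips and 0 were called, with a median contrast of 0.12 (0.17 over young, 0.03 over old). That median was 0.18 without old replicate 1, 0.08 without old replicate 4, 0.06 without middle-aged replicate 5 and 0.05 without old replicate 5. Fabp3, the fatty acid carrier of muscle, had 0.29 ± 0.18 and Acadvl, the first dehydrogenase of very long chain oxidation, 0.18 ± 0.11, neither past an unadjusted p of 0.05 in the contrast. The middle-aged array medians of this list ran from -0.08 to 0.43 around the mean of all arrays, against -0.22 to -0.01 on the young and -0.40 to 0.50 on the old arrays.

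Lists of energy metabolism beyond lipids had smaller median contrasts with all arrays, but single arrays moved these medians. Of 24 measured genes of the TCA cycle and pyruvate use, 10 were peaks and 2 dips (median 0.04), and Fh1, fumarate hydratase, was the 1 member past an unadjusted p of 0.05, standing 0.25 over young and 0.26 over old muscle (contrast 0.25 ± 0.09, adjusted p = 0.973). Of 71 measured nuclear genes of oxidative phosphorylation, 26 were peaks, 14 were dips and 31 lay between the ends, with a median of 0.02, and Sdhc, a membrane subunit of complex II, had the lowest p (contrast 0.23 ± 0.10). Leaving out single arrays put that list median at -0.0025 to 0.099. Old replicate 3 (-0.42) and middle-aged replicate 5 (-0.33) had the lowest array medians of the list. Of 18 genes of glycolysis and glycogen, 13 lay between the ends. Pfkm, the muscle phosphofructokinase, had 0.20 ± 0.09 (0.15 and -0.05 by further probes) and Ldha 0.21 ± 0.10. The median of the 18 genes was 0.03, and 0.020 to 0.088 without single arrays.

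The glucocorticoid and fasting list leaned lower at middle age. Of its 16 measured genes, 13 had a contrast below 0, 9 were dips, 0 were peaks and 0 were called, and the median was -0.19 (-0.29 against young, -0.15 against old). It was -0.09 without middle-aged replicate 1, -0.11 without middle-aged replicate 3, -0.12 without young replicate 5 and -0.29 without middle-aged replicate 5. At an unadjusted p under 0.05 the list held 4 of 16 lower and 0 higher, where the share of all features was 2.01% lower and 2.56% higher. The 4 were Fkbp5, Glul, Mt1 and Mt2, and the metallothioneins Mt1 and Mt2 are also counted in the antioxidant list below. Of the 16 genes, 0 passed the both-ends test at an unadjusted p under 0.05 (0.56% of all features did). Fkbp5, a chaperone of the glucocorticoid receptor that glucocorticoids induce, read 7.20, 7.80, 7.52, 7.60 and 7.38 in middle-aged muscle, against 8.45, 7.87, 7.41, 8.13 and 8.16 in young and 8.90, 7.31, 8.13, 8.30 and 8.88 in old muscle. The contrast was -0.66 ± 0.22 (1.58-fold lower, unadjusted p = 0.00806, adjusted p = 0.973), and 1 young and 1 old array lay within the middle-aged range. Glul, glutamine synthetase, had a contrast of -0.42 ± 0.16 and was detected on 3 of 5 middle-aged arrays. By array, the list's median ran from -0.29 to 0.10 in middle-aged muscle, against -0.15 to 0.48 in young and -0.31 to 0.20 in old muscle, so the groups overlapped.

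Protein synthesis and breakdown genes differed by less. Of 53 measured cytosolic ribosomal protein genes, 38 had a contrast below 0 and 32 were dips, but the median was only -0.07 and stood at 0.03 without middle-aged replicate 5. Middle-aged replicate 5 (-0.43) and old replicate 3 (-0.49) had list medians far below the other 13 arrays (-0.05 to 0.24). Of these 53 genes, 3 passed an unadjusted p of 0.05, 2 lower and 1 higher, close to the share of 4.56% over all features. Rpl3 was lower at -0.37 ± 0.13, with -0.72 against old muscle (adjusted p = 0.0414) and -0.03 against young muscle, and Rpl7a higher at 0.54 ± 0.23. Of 17 measured genes of the atrophy ligases, FoxO factors and autophagy, 14 had a contrast below 0, 7 were dips and 10 lay between the ends, with a median of -0.09. Nedd4, a ubiquitin ligase, had the lowest p of these (contrast -0.28 ± 0.12, with -0.29 against young and -0.26 against old muscle). The 28 proteasome subunits had a median of -0.04 (0.0051 with median scaling), with 14 between the ends.

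Several other lists had medians of opposite sign against the young and the old group. Among lists of 5 or more measured genes, the denervation list had the lowest median contrast, -0.37, with 0.04 against young and -1.02 against old muscle, and the macrophage list followed at -0.23, with 0.14 against young and -0.59 against old muscle and 14 of 17 measured genes between the ends. The slow fibre genes had a median of 0.11 that joined 0.35 against young and -0.21 against old muscle, with 9 of 12 between the ends, and the median was 0.03 without young replicate 5, 0.05 without middle-aged replicate 3, 0.0038 without middle-aged replicate 5 and -0.14 without old replicate 5. The fibroblast list (15 measured, 14 above 0, 6 peaks, median 0.17) and the extracellular matrix list (22 measured, 5 peaks, median 0.12) stood close to young muscle (-0.01 and -0.06) and above old muscle (0.30 and 0.28). The 15 fast fibre genes and the 11 fibre markers had medians of -0.0086 and -0.01, and 0 genes of the lymphocyte list were measured, since none of its probes passed the detection filter. The remaining lists of 5 or more measured genes had medians from -0.16 (antigen presentation) to 0.23 (mast cell genes) and no called member, while 2 neutrophil and 4 red blood cell genes gave -0.37 and -0.11.

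**Figure D5:**
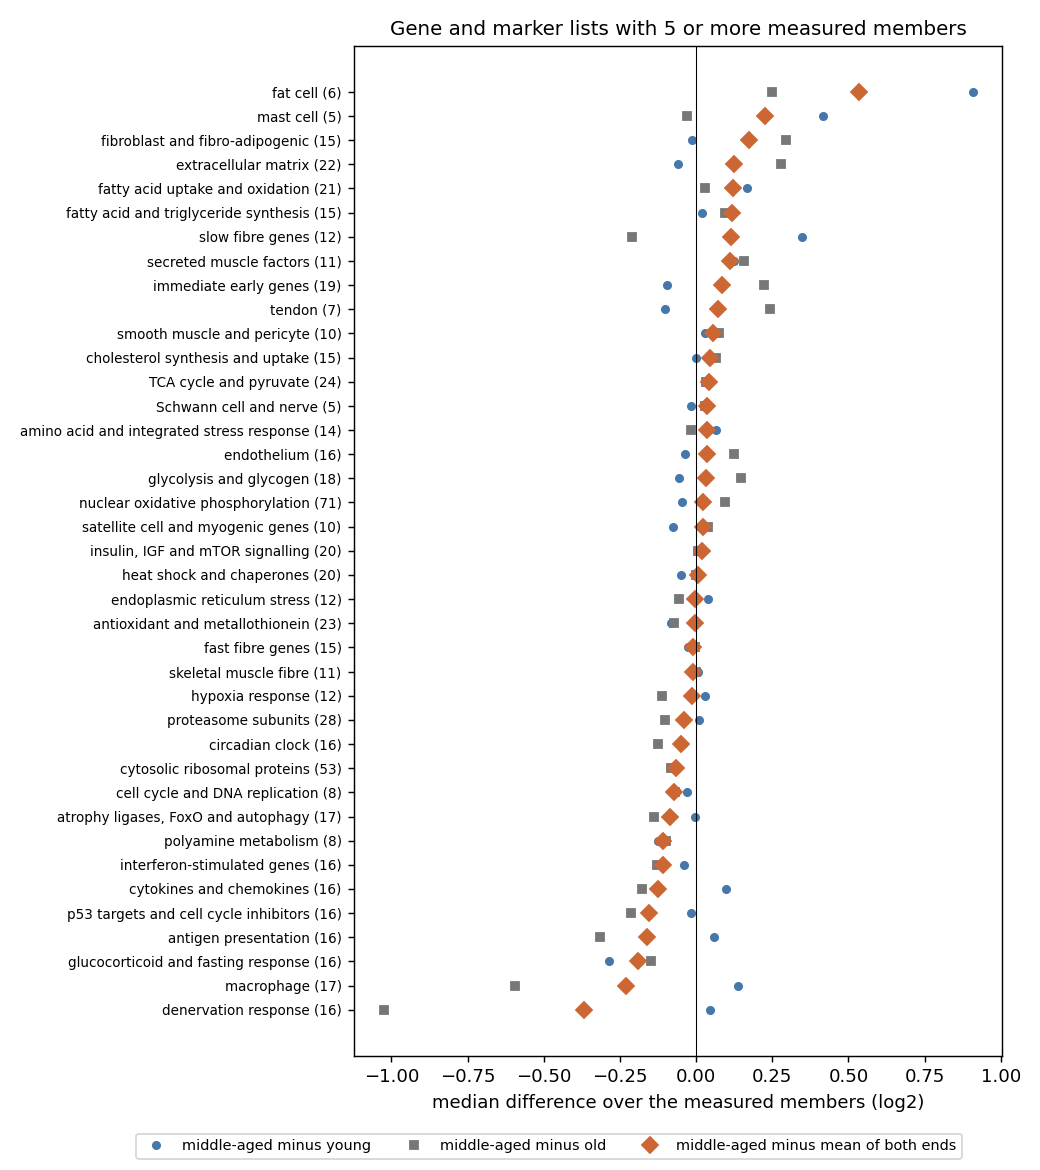
Median difference over the measured members (log2, number in brackets) for each gene or marker list with 5 or more of them. Diamonds show middle-aged minus the mean of both ends, circles middle-aged minus young and squares middle-aged minus old. Fat cell genes lie highest (0.53), the denervation list lowest (-0.37), and only where circle and square fall on the same side does the list median differ from both ends in 1 direction.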

How the data were processed

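The authors hybridised total RNA from each muscle to a bead array and read it with GenomeStudio 2011.1. The deposited table holds a raw intensity per probe, with no background correction, and beside it a detection p-value against the negative controls of the array. The authors also deposited a Z score per probe, the natural log intensity standardised within each array, which served as an alternative. Here neqc of limma 3.58.1 (R 4.3.3) corrected the background with an offset of 16 and normalised by quantiles on the log2 scale. Probes needed a detection p under 0.05 on 5 arrays, and each gene was represented by its brightest probe on average. Probe names came from the platform annotation. lmFit and eBayes with an intensity trend fitted 1 mean per age over 15 arrays, and the adjusted p-values (Benjamini-Hochberg, over 9470 features) come from limma. Interval bounds are 95% limits of a difference of group means by the limma standard error, which rests on the spread between these 15 mice. They are not adjusted for the number of features tested. The number of arrays limits the precision.

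Where a probe was not well above background on any array of a group, the fold is a bound against the dimmest detected signal. The steps were tested on simulated data. The genes named were those called outside both ends, the 6 uncalled peaks and the 6 uncalled dips of lowest both-ends p, up to 2 members of each list described by lowest p, the features nearest the threshold and those with no overlap. The comparison, the 30 gene lists and the 12 marker lists were chosen with earlier results of these data known, so no list is independent support. The alternatives covered scaling, background correction, the filter, probe choice, the spread model, the replicate block, a straight line between the ends, the methods' t-test and leaving out arrays.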

Additional observations from a re-analysis of the deposited data

Results flagged for a closer look

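Of 174 groups of 5 arrays checked for the genes named, 8 had 1 array far from the other 4 by Dixon's criterion for 5 samples, and chance alone would single out about 1 in 20 groups. Tpx2 read 5.70 on middle-aged replicate 5, against 5.00 to 5.19 on the other middle-aged arrays, and 5.42 on old replicate 5, against 4.49 to 4.61 on the other old arrays. Ugcg read 10.27 on old replicate 3, against 8.80 to 9.02 on the other old arrays, and 8.93 on young replicate 4, against 8.70 to 8.74 on the other young arrays. Btg1 read 9.42 on young replicate 3 (9.70 to 9.79 on the others), Mutyh 4.61 on young replicate 5 (4.87 to 4.94), Acadvl 11.74 on young replicate 1 (11.90 to 11.94) and Myl1, a light chain of fast myosin, 15.04 on old replicate 5 (15.35 to 15.45). The cause of these values was not tested.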

How the results depend on the processing

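The number of calls in the middle-age contrast depended on the setting, from 0 to 16. It was 5 (2 peaks, 2 dips) with the Z scores of the methods, the deposited Z scores, no background correction or an offset of 50, the additions being Sln, Gadd45a and Kcnab1. It was 3 with median scaling (1 dip, Sln), 1 with detection on all 15 arrays, 4 with a straight line between the ends (2 dips) and 16 with array weights (5 peaks, 10 dips). With every probe on its own both Dkk3 probes were called, as 2 peaks. Without young replicate 4 and middle-aged replicate 2 together, 1 feature was called (0 peaks), and without middle-aged replicate 5 and old replicate 3 together 0 were (0 peaks; 1015 at an unadjusted p under 0.05). Leaving out single arrays gave 0 to 8 calls (0 to 3 peaks, 0 to 4 dips), the highest without old replicate 5. Krt18 was not tested without an old array, being then detected on 4 arrays. The both-ends test called 0 features in limma whichever single array was left out, with 33 to 135 at an unadjusted p under 0.05. The methods' t-test with its Z ratio threshold put 13 features outside both ends, 9 as peaks and 4 as dips, and 0 after adjustment. Without single arrays the young contrast called 31 (young replicate 5) to 216 features (old replicate 5), and the old contrast 106 (old replicate 4) to 838 (old replicate 5).

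The labels do not say that a replicate number marks shared animals or handling. Of 15 same-numbered pairs 3 correlated above 0.1, all 3 between middle-aged and young arrays (-0.05 to 0.40 over the 5 pairs of these ages, -0.50 to 0.09 for middle-aged and old, -0.23 to 0.08 for old and young), and 5 of 15 arrays matched their own number best. For Dkk3, old minus young within a number was -0.24 to 0.10. With the number as a replicate block, the contrast called 3 features (1 dip, Sln), the both-ends test 1 (Dkk3, adjusted p = 0.0174), the young contrast 42 and the old contrast 158. The contrast of Dkk3 kept its direction in all 30 alternatives and passed the threshold in 21. Of the genes named, Cidea and Plin4, both close to 0, changed sign. The contrast of Cidea was 0.030 with median scaling, 0.11 without young replicate 4 and middle-aged replicate 2, 0.013 without middle-aged replicate 5 and old replicate 3, and up to 0.066 without single arrays. That of Plin4 was -0.018 with array weights, -0.038 without middle-aged replicate 5 and old replicate 3, and -0.058 at the lowest without single arrays. Dim genes near background are limited by signal, since quantile values there change little with RNA level. The cause of the differences between settings was not tested.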

Other observations

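Further lists held single genes past an unadjusted p of 0.05, none of which was called in the middle-age contrast by limma (adjusted p = 0.973 for Txn1, Txnip, Mt1, Mt2, Il15 and Inhba). Of 23 measured antioxidant and metallothionein genes, 4 had a lower and 0 a higher level at an unadjusted p under 0.05, where the share of all features was 2.01% lower. The 4 were thioredoxin (Txn1), its inhibitor (Txnip) and, named after their values were seen, the metallothioneins Mt1 (-0.53 ± 0.23) and Mt2 (-0.35 ± 0.16), and 2 of the 4, Txn1 and Txnip, passed the both-ends test at an unadjusted p under 0.05. Mt1 and Mt2 also belong to the glucocorticoid and fasting list and are 2 of its 4 lower genes, so the counts of these lists are not separate. Txn1 read 6.76, 6.74, 7.21, 6.63 and 6.28 in middle-aged muscle, against 7.25, 7.23, 7.15, 7.02 and 7.16 in young and 7.05, 7.08, 6.67, 7.58 and 7.12 in old muscle (contrast -0.41 ± 0.15 SE, log2). Txnip had a contrast of -0.29 ± 0.11, with -0.32 against young and -0.27 against old muscle. Over the 23 measured genes of that list the median was -0.0050, with 7 dips and 3 peaks. Il15, a cytokine made by muscle, read 9.27, 8.91, 9.02, 9.13 and 9.01 in middle-aged muscle, against 8.69, 8.25, 8.94, 8.94 and 8.13 in young and 9.14, 9.09, 8.27, 8.58 and 7.86 in old muscle. Its contrast was 0.48 ± 0.19, and 2 further probes gave 0.52 and 0.0037. Inhba, an activin subunit, had 0.32 ± 0.14, and the 11 measured secreted factors had a median of 0.11, with 5 peaks and 2 dips.

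Odc1, the first enzyme of polyamine synthesis, had a contrast of -0.38 ± 0.13, of which -0.55 was against young (adjusted p = 0.371) and -0.21 against old muscle, and 5 of 8 polyamine genes were dips. Socs3, an inhibitor of cytokine signalling, had -0.49 ± 0.19. Among cells other than fibres, the endothelial gene Pecam1 had -0.28 ± 0.10 (-0.08 by a second probe), while 5 of 16 measured endothelial genes were dips and 5 were peaks, with a median of 0.03. The mast cell protease Tpsb2 had 0.37 ± 0.17, and all 5 measured mast cell genes had a contrast above 0, but 4 of them lay between the ends. Tap2, a peptide transporter of antigen presentation, had -0.55 ± 0.13 (adjusted p = 0.631), with -0.31 against young and -0.78 against old muscle (adjusted p = 0.0296), and the 16 measured genes of that list differed from old (-0.31) more than from young muscle (0.06).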
